A study of Homo sapiens with 16 samples.

Results

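The genes described here are 10 regulators of the G1 phase of the cell cycle, the D-type cyclins *CCND1*, *CCND2* and *CCND3*, the E-type cyclins *CCNE1* and *CCNE2*, the kinases *CDK4*, *CDK6* and *CDK2*, the phosphatase *CDC25A* and the inhibitor *CDKN1B*. They were chosen by name, through the human symbols of the Ensembl identifiers, and make up 10 of the 33937 genes in the deposited count matrix. HCT116 is an established cell line from a human colorectal carcinoma, and 16 libraries of its total RNA fall into 4 groups of 4. The groups are stable lines that carry a scramble control shRNA (SCR) or an shRNA against the N-terminal acetyltransferase *NAA40* (NAA40-KD), both inducible with doxycycline (dox), and kept for 96 h without dox or with dox at 1 µg/ml. Each group is called by its line and its dox label, for example SCR (-dox) or NAA40-KD (+dox), as the labels assign them. Whether a line is 1 clone or a pool is not given in the sources used here, so a difference between the lines cannot be told apart from a difference between their founding cells. The methods state independent RNA samples.

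In G1, mitogen signals raise the D-type cyclins, which bind CDK4 and CDK6 and start the phosphorylation of the retinoblastoma protein RB. RB then releases the E2F factors, and these switch on the E-type cyclins, CDK2 activity and the genes of S phase. The phosphatase CDC25A removes inhibitory phosphates from CDK2, and p27, the product of *CDKN1B*, holds cyclin E and CDK2 in check. In colorectal carcinoma cells cyclin D1 is a known target of active WNT signalling. Much of the control of these proteins, p27 and the cyclins above all, acts on their breakdown and is not read by RNA counts.

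The targeted gene went against the labels. *NAA40* was at 12.6, 11.6, 9.27 and 13.8 TMM-normalized CPM (counts scaled to a common library size) where the label is NAA40-KD (-dox), and at 31.5, 29.3, 28.7 and 31.9 CPM where it is NAA40-KD (+dox). The SCR libraries held 25.9 to 34.5 CPM of *NAA40* without dox and 26.05 to 28.8 CPM with it. The level in the libraries labelled NAA40-KD (-dox) was 40.2% of that in SCR (-dox). With the label NAA40-KD (+dox) the level was 110.8% of that in SCR (+dox). These had p = 0.0286 and p = 0.0571 by exact two-sided permutation tests of 4 against 4, for which 0.0286 is the smallest p. Every direction below therefore belongs to the libraries as labelled.

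Total counts ran from 11065606 to 13855486 per library, and 22045 to 23286 genes had a count. Of 7 markers of colon epithelial carcinoma cells 6 had a mean above 1 CPM, with *VIL1* at 0 to 0.273 CPM, while 0 of 4 leukocyte, 1 of 5 fibroblast (*COL1A1*) and 1 of 3 endothelial markers (*VWF*) did. The library labelled NAA40-KD (-dox) replicate 4 stood apart from its group, with a median absolute distance of 0.756 in log2 CPM from the mean of the other libraries, against 0.0842 to 0.290 in the 15 others. Genes with long transcripts were low in it relative to genes with short ones, with a difference of -0.61 in log2 between genes with longest transcripts of at least 5246.5 bp and of at most 2212.25 bp, followed by -0.40 in SCR (+dox) replicate 3 and -0.12 to 0.16 in the others. It also held the highest *COL1A1* and *KRT8*, at 195 and 5150 CPM, and the lowest share of mitochondrial counts, at 5.03%. The counts of calls in the main fits, the order of levels, the ratios between the lines and the nearest profiles that use this library are given with it and without it.

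Among the D-type cyclins *CCND1* was by far the most abundant, and *CCND2* was near 0. Per kb of merged exons, the scale on which different genes can be compared, *CCND1* had 110 ± 5.01 CPM per kb (SD, n = 4) in SCR (-dox), *CCND3* 4.62 ± 0.648 and *CCND2* 0.00876 ± 0.00588. *CCND2* had 0 to 5 counts in each library and was not tested in any comparison, which leaves 9 of the 10 genes tested. Its exons share 989 bp with another annotated gene on the same strand, and so those counts are uncertain as well. The depth of these libraries allows no statement on a difference in *CCND2*.

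The order of the levels per kb in SCR (-dox) was *CCND1*, *CDK4* (19.8 ± 3.31), *CDK2* (18.4 ± 1.82), *CCNE1* (11.8 ± 0.841), *CDKN1B* (11.4 ± 1.02), *CDK6* (8.24 ± 1.13), *CDC25A* (6.35 ± 0.849), *CCND3*, *CCNE2* (2.71 ± 0.603) and *CCND2*. Within this order *CDK4* and *CDK2*, *CCNE1* and *CDKN1B*, and *CDK6* and *CDC25A* overlapped between libraries and did not differ beyond their spread. The same order held in SCR (+dox) and in NAA40-KD (+dox). In the libraries labelled NAA40-KD (-dox) *CDKN1B* stood second, at 15.3 ± 1.44 CPM per kb, its values overlapping those of *CDK4* at 14.9 ± 4.88. There *CCNE1*, at 7.11 ± 1.37, had moved below *CDK6*, at 8.52 ± 2.78, with overlap that was absent without replicate 4. Without replicate 4 the order in that group was the same, and *CDKN1B*, at 15.8 to 16.4 CPM per kb, did not overlap *CDK4*, at 11.3 to 13.6. The second place of *CDKN1B* depended on the length used. Divided by the longest transcript in place of all exons, *CDK4* was second there, at 22.8 ± 7.45 against 16.2 ± 1.53 for *CDKN1B*, as it was in the other groups. *CCNE1* and *CDK6* then hardly differed, at 8.87 ± 1.71 and 8.99 ± 2.93, and overlapped. With that length 26 of the 40 ranks were the same. *CCND3*, with 5802 bp of merged exons but a longest transcript of 2394 bp, moved up in 3 of the 4 groups, and *CDC25A* passed *CDK6* in NAA40-KD (+dox).

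**Figure D1:**
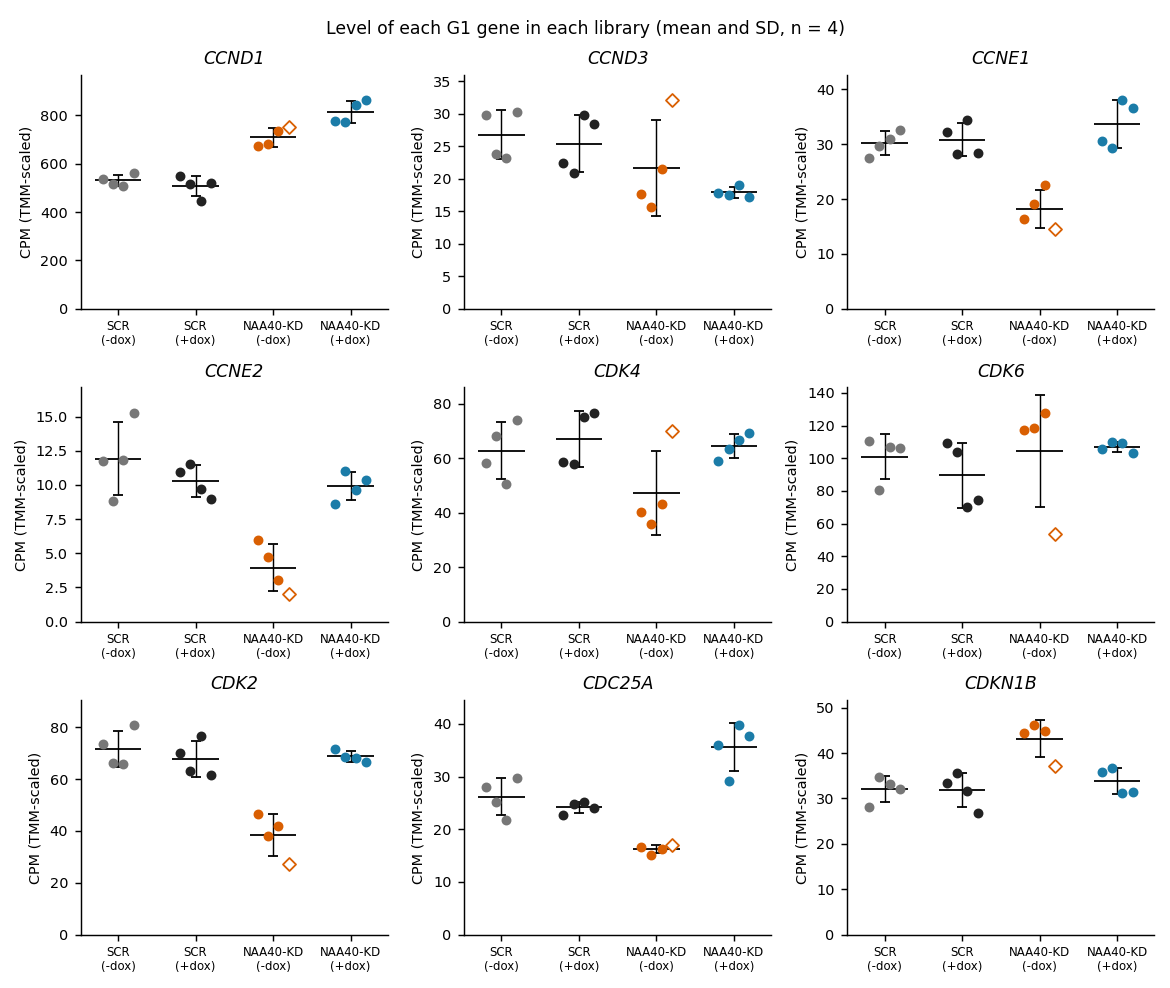
Level of 9 G1 genes in TMM-normalized CPM (y axis, linear from 0) in the 16 libraries, by group (x axis); points are libraries, lines and bars are the mean and SD of 4, and the open diamond is the library labelled NAA40-KD (-dox) replicate 4. *CCNE1*, *CCNE2*, *CDK2* and *CDC25A* are lowest in the libraries labelled NAA40-KD (-dox), while *CCND1* is higher in both NAA40-KD groups than in both SCR groups.

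With the (-dox) labels, the genes of the cyclin E and CDK2 step were lower in NAA40-KD than in SCR libraries. Of the 9 genes tested 4 were lower and 0 higher at an adjusted p under 0.05 (edgeR quasi-likelihood test, Benjamini-Hochberg), against 6.42% of all 13903 genes called in either direction. *CCNE2* alone also passed an absolute log2 fold change of 1, which 3.47% of all genes did. The median log2 fold change of the 9 genes was -0.40, and that of all genes tested was 0.04. In bulk RNA less of a transcript per cell cannot be told apart from fewer cells in the phase that expresses it.

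*CCNE2*, 1 of the 2 E-type cyclins that activate CDK2, had the widest difference. Its CPM were 11.8, 8.82, 11.9 and 15.3 in SCR (-dox) and 5.97, 4.72, 3.06 and 2.06 in NAA40-KD (-dox). All 4 NAA40-KD libraries, with 25 to 80 counts each, lay below all 4 SCR libraries. The share of all genes whose groups do not overlap was not counted, so here and below such a statement only describes the values. The level was 3.00-fold lower, or -1.59 ± 0.31 in log2 (fold change ± SE, adjusted p = 0.0208 by edgeR's quasi-likelihood test). *CCNE2* shares 1633 bp of its exons with *INTS8* and a further gene on the opposite strand, and whether the counting used strand is not given in the sources used here.

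*CCNE1*, the other E-type cyclin, lies at chr19:29811898-29824308 (GRCh38) and shares no exon with another gene. It was at 27.5, 29.7, 31.0 and 32.6 CPM in SCR (-dox) and at 16.4, 19.0, 22.5 and 14.5 CPM in NAA40-KD (-dox). These groups did not overlap either, and the log2 fold change was -0.73 ± 0.17 (adjusted p = 0.0347, edgeR). *CDK2*, the kinase that both E-type cyclins bind (chr12:55966769-55972784), was at 73.7, 66.2, 65.9 and 80.8 CPM in SCR (-dox) against 46.4, 38.0, 42.1 and 27.3 CPM in NAA40-KD (-dox). It fell by 0.89 ± 0.18 on the log2 scale (adjusted p = 0.0224, edgeR), with no overlap of the groups. *CDK2* shares 654 bp of its exons with *PMEL* and a further gene on the opposite strand, and *CDK4* shares 1369 bp with *TSPAN31*. Since the use of strand in the counting is not given, the counts of both kinases are uncertain.

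*CDC25A*, whose product activates CDK2, lies at chr3:48157146-48188402 and shares no exon with another gene. It was the most even of these genes within the NAA40-KD group, at 16.7, 15.1, 16.3 and 17.0 CPM. The SCR (-dox) libraries held 27.9, 25.2, 21.7 and 29.8 CPM, all above them. The log2 fold change was -0.68 ± 0.16 (adjusted p = 0.0334, edgeR). The library that stood apart was at the level of its group here, at 17.0 CPM.

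The remaining genes did not pass the test with the (-dox) labels. *CCND1*, the partner of CDK4 and CDK6, was at 538, 518, 508 and 563 CPM in SCR (-dox) and at 673, 680, 735 and 751 CPM in NAA40-KD (-dox), a log2 difference of 0.43 ± 0.12 with an adjusted p of 0.0656 (edgeR). *CDKN1B*, the p27 inhibitor of cyclin E and CDK2, was at 28.1, 34.8, 33.3 and 32.1 CPM against 44.4, 46.1, 44.9 and 37.1 CPM, a log2 difference of 0.43 ± 0.14 with an adjusted p of 0.104 (edgeR). For both genes every NAA40-KD library was above every SCR library, which does not replace the test. Of 17 alternative fits *CCND1* passed in 4 and *CDKN1B* in 3. *CCND3*, *CDK4* and *CDK6* differed by -0.29 ± 0.24, -0.40 ± 0.24 and 0.05 ± 0.25 on the log2 scale (adjusted p of 0.507, 0.349 and 0.931, edgeR), and their groups overlapped.

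For these 3 genes the groups overlapped only through the library that stood apart. *CDK6*, whose longest transcript of 11612 bp is the longest among the 10 genes, was at 117, 118 and 128 CPM in replicates 1 to 3 of NAA40-KD (-dox) and at 53.8 CPM in replicate 4. *CDK4*, with a longest transcript of 2076 bp, was at 40.3, 35.8 and 43.0 CPM in replicates 1 to 3 and at 70.1 CPM in replicate 4. *CCND3* was at 17.6, 15.6 and 21.5 CPM in replicates 1 to 3 and at 32.2 CPM in replicate 4. The SCR (+dox) replicates 3 and 4, next in the length difference at -0.40 and -0.12, held 69.9 and 74.7 CPM of *CDK6* against 110 and 104 CPM in replicates 1 and 2. In the same order *CDK4* was at 74.96 and 76.8 CPM against 58.6 and 58.0 CPM, and *CCND3* at 29.8 and 28.4 CPM against 22.5 and 20.9 CPM. Such levels were not limited to these libraries. SCR (-dox) replicate 4, with a length difference of -0.02, held 74.1 CPM of *CDK4* and 30.2 CPM of *CCND3*. SCR (-dox) replicate 1, at 0.09, held 58.1 CPM of *CDK4* and 29.9 CPM of *CCND3*. With a length offset, *CDK6*, *CDK4* and *CCND3* had log2 differences of 0.08 ± 0.19, -0.45 ± 0.19 and -0.33 ± 0.20 with the (-dox) labels. None of these was called. What part the length difference has in these levels was not tested beyond that fit.

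**Figure D2:**
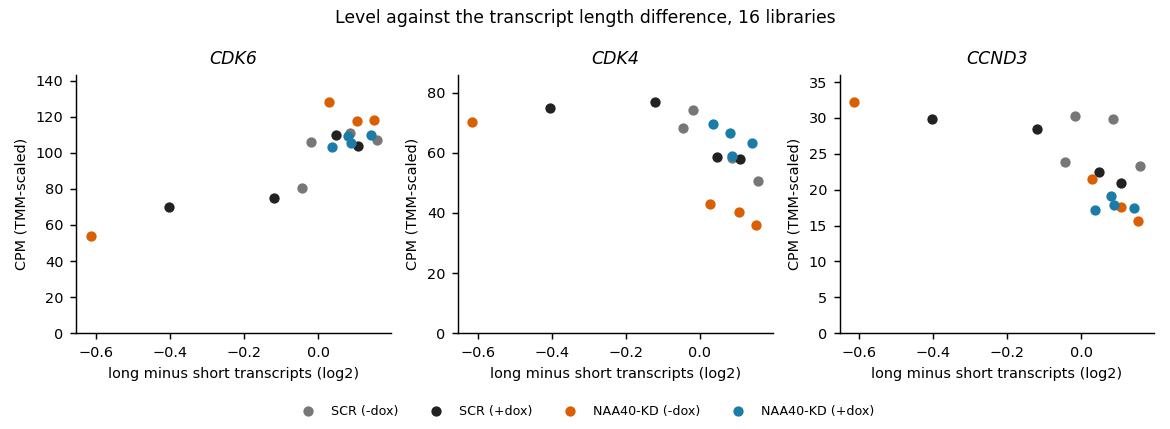
Level of *CDK6*, *CDK4* and *CCND3* in TMM-normalized CPM (y axis, linear from 0) against the difference in log2 CPM deviation between genes with long and with short transcripts (x axis, log2) in 16 libraries, coloured by group. The 3 libraries furthest to the left, at -0.61, -0.40 and -0.12, hold 53.8, 69.9 and 74.7 CPM of *CDK6*, the lowest of the 16.

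Without NAA40-KD (-dox) replicate 4, 8 of the 9 genes were called with the (-dox) labels, 2 higher and 6 lower, against 36.5% of all genes in that fit. The higher ones were *CCND1* with a log2 fold change of 0.38 ± 0.08 and *CDKN1B* with 0.49 ± 0.10 (adjusted p of 0.00214 and 0.00112, edgeR quasi-likelihood test). *CDK4* and *CCND3* joined the lower ones with -0.66 ± 0.12 and -0.56 ± 0.14 (adjusted p of 0.000632 and 0.00444, edgeR). *CDK6* stood at 0.26 ± 0.10 and was not called (adjusted p = 0.0636, edgeR). *CCNE2*, *CCNE1*, *CDK2* and *CDC25A* kept log2 fold changes of -1.39, -0.65, -0.77 and -0.71. The count was 0 of 9 without SCR (-dox) replicate 1, 3 or 4 or without NAA40-KD (-dox) replicate 2, 1 without SCR (-dox) replicate 2 or NAA40-KD (-dox) replicate 3, and 2 without NAA40-KD (-dox) replicate 1. In these 7 fits 1.64% to 3.18% of all genes were called.

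With the (+dox) labels the E-type cyclins and *CDK2* showed no such difference, and *CCND1* had the widest of the 9 genes tested. Of these 9 genes 2 were higher and 1 was lower in NAA40-KD than in SCR libraries (edgeR, adjusted p under 0.05). This share of 33.3% was near the 24.5% of all 13869 genes called, so the count sets these genes little apart. None of the 9 passed an absolute log2 fold change of 1, which 2.15% of all genes did. The median log2 fold change of the 9 genes was 0.08 and that of all genes was 0.00 after rounding, at -0.00425.

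*CCND1* was at 548, 516, 447 and 519 CPM in SCR (+dox) and at 778, 773, 843 and 866 CPM in NAA40-KD (+dox), without overlap. It was 1.60-fold higher, a log2 fold change of 0.68 ± 0.09 (adjusted p = 2.28e-05, edgeR), and stayed between 0.61 and 0.73 over 18 alternative fits, in all of which it passed. *CCND1* (chr11:69641087-69654474) shares 497 bp of exon with *LTO1* on the opposite strand. *CDC25A* was at 22.7, 24.8, 25.2 and 24.0 CPM in SCR (+dox) and at 36.1, 29.2, 39.7 and 37.6 CPM in NAA40-KD (+dox). It was 1.48-fold higher, at 0.56 ± 0.11 on the log2 scale (adjusted p = 0.00109, edgeR), and also passed in all 18 alternatives. *CDC25A* was therefore below SCR with the NAA40-KD (-dox) label and above SCR with the NAA40-KD (+dox) label.

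*CCND3*, the second expressed D-type cyclin, was at 17.8, 17.5, 19.1 and 17.2 CPM in NAA40-KD (+dox), below the 20.9 to 29.8 CPM of SCR (+dox). It fell by 0.51 ± 0.12 on the log2 scale (adjusted p = 0.00553, edgeR). Against SCR (+dox) replicates 1 and 2 alone the log2 fold change was -0.28 ± 0.10 (adjusted p = 0.0427, edgeR), and with all 16 libraries in 1 fit *CCND3* did not pass (adjusted p = 0.138, edgeR).

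The other genes did not pass with the (+dox) labels. *CCNE1* differed by 0.13 ± 0.11 on the log2 scale and *CCNE2* by -0.05 ± 0.13. *CDK2* differed by 0.02 ± 0.09, *CDK4* by -0.06 ± 0.11 and *CDKN1B* by 0.08 ± 0.11. *CDK6* stood at 0.26 ± 0.12 (adjusted p = 0.132, edgeR), passed without SCR (+dox) replicate 1 (adjusted p = 0.0314, edgeR) and had no difference (2.82e-05 in log2) against SCR (+dox) replicates 1 and 2 alone. Over the alternatives *CDK2* lay between -0.03 and 0.08 and *CCNE2* between -0.18 and 0.01 on the log2 scale.

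**Figure D3:**
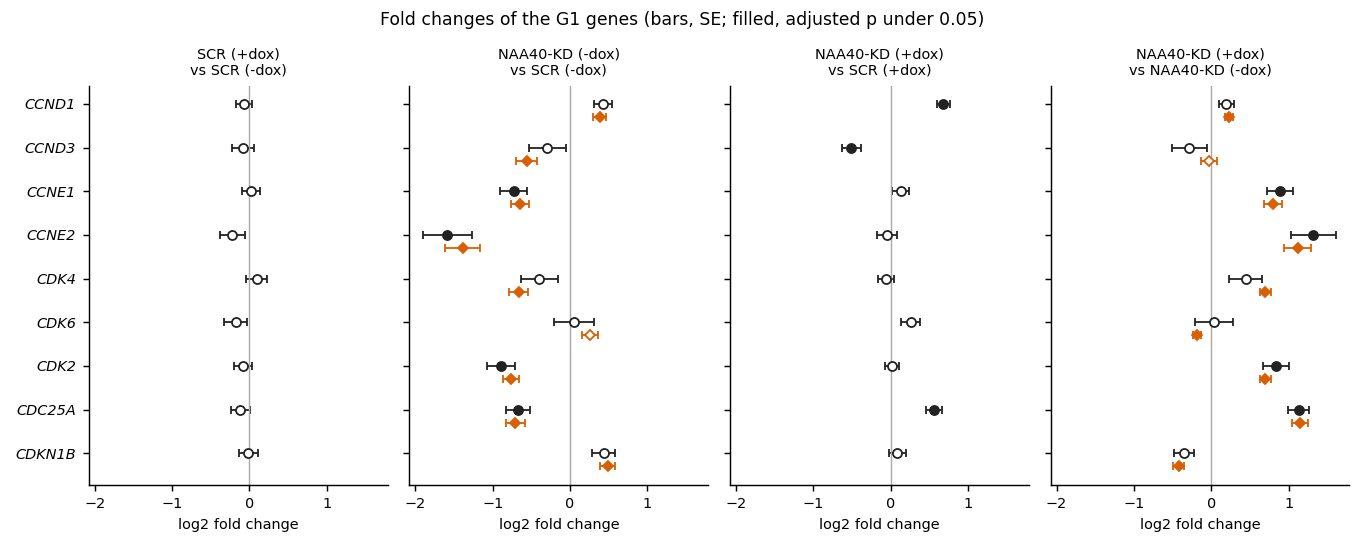
Log2 fold change (x axis) of 9 G1 genes (y axis) in 4 comparisons, with bars for the SE; black circles use all libraries of the comparison, orange diamonds leave out the library labelled NAA40-KD (-dox) replicate 4, and filled symbols have an adjusted p under 0.05 in edgeR's quasi-likelihood test. *CCNE1*, *CCNE2*, *CDK2* and *CDC25A* lie at -0.73, -1.59, -0.89 and -0.68 in NAA40-KD (-dox) against SCR (-dox), and at 0.13, -0.05, 0.02 and 0.56 in NAA40-KD (+dox) against SCR (+dox).

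The test of the difference between these 2 contrasts, over all 16 libraries, called the same 4 genes. Of the 9 genes 4 had an interaction of line and dox label (edgeR, adjusted p under 0.05), against 9.22% of all 14392 genes, and 2 of them passed an absolute log2 value of 1, which 4.49% of all genes did. *CDC25A* had an interaction of 1.25 ± 0.18 (adjusted p = 0.000418), *CCNE2* of 1.54 ± 0.34 (adjusted p = 0.00909), *CDK2* of 0.92 ± 0.20 (adjusted p = 0.00911) and *CCNE1* of 0.86 ± 0.20 (adjusted p = 0.0127) on the log2 scale. All 4 passed at an adjusted p under 0.05 in each of 24 alternative fits. Without NAA40-KD (-dox) replicate 4 there were 6 calls against 24.2% of all genes, with *CDK4* at 0.60 ± 0.17 and *CDKN1B* at -0.41 ± 0.14 added. *CCND1* had no called interaction, at 0.27 ± 0.13 (adjusted p = 0.227, edgeR), so its higher level in NAA40-KD is not shown to differ between the dox labels.

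The dox labels were also compared within the SCR line, where dox induces the scramble shRNA as well, so dox alone was not tested. There 0 of 9 genes were called by edgeR, DESeq2 or limma-voom, and 0 of 13882 genes in all (0% of genes). At an unadjusted p under 0.05 edgeR had 271 of all 13882 genes and 0 of the 9. That is fewer than the threshold alone would give by chance, so the test was conservative here. The 0 calls therefore do not show that the dox labels make no difference in this line. The log2 fold changes ran from -0.22 ± 0.16 for *CCNE2* to 0.09 ± 0.13 for *CDK4*. Those of *CCND1* and *CDC25A* were -0.07 ± 0.11 and -0.12 ± 0.12.

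Within the NAA40-KD line the same cyclin E and CDK2 genes were higher with the (+dox) label. This comparison shares its libraries with those above, so its values are not independent of them. Of the 9 genes 4 were higher and 0 lower (edgeR, adjusted p under 0.05), against 10.2% of all 13844 genes, and *CCNE2* and *CDC25A* passed an absolute log2 fold change of 1, which 3.99% of all genes did. *CCNE2* was at 8.64, 11.02, 9.60 and 10.4 CPM with the (+dox) label and 2.50-fold higher than with the (-dox) label. *CDC25A* was 2.19-fold higher, *CCNE1* 1.85-fold, at 30.5, 29.4, 38.1 and 36.5 CPM, and *CDK2* 1.79-fold, at 71.7, 68.5, 68.1 and 66.7 CPM. The adjusted p-values in edgeR were 0.0237, 0.00296, 0.0145 and 0.0167 in this order.

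*CDKN1B* was at 35.9, 36.6, 31.2 and 31.4 CPM in NAA40-KD (+dox), below all 4 libraries labelled NAA40-KD (-dox), with a log2 difference of -0.36 ± 0.13 that was not called (adjusted p = 0.115, edgeR). *CDK4* was at 59.0, 63.3, 66.5 and 69.4 CPM, and *CDK6* at 105, 110, 109 and 103 CPM. Without NAA40-KD (-dox) replicate 4, 8 of the 9 genes were called against 52.4% of all genes, 6 higher and 2 lower. *CDK4* then rose by 0.70 ± 0.07 and *CCND1* by 0.22 ± 0.05 on the log2 scale, *CDKN1B* fell by 0.42 ± 0.08, and *CDK6* turned from 0.03 ± 0.24 to -0.18 ± 0.05 (adjusted p = 0.00544, edgeR). The count was 1, *CDC25A*, without NAA40-KD (+dox) replicate 3 or 4, and 2 without replicate 1 or 2 of that group. In these 4 fits 2.77% to 3.65% of all genes were called.

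Ratios of paired genes within a library need no scaling between libraries. They do not remove the transcript length difference, since paired genes differ in length, with longest transcripts of 4307 bp for *CCND1* and 2394 bp for *CCND3*. Its part in the ratios was not tested. *CCND1* had 18.0, 21.7, 21.8 and 18.6 counts for each count of *CCND3* in SCR (-dox) and 24.3, 24.6, 15.0 and 18.2 in SCR (+dox). The libraries labelled NAA40-KD (-dox) had 38.1, 43.5, 34.1 and 23.3, and those labelled NAA40-KD (+dox) 43.6, 44.2, 44.0 and 50.2. The D-type cyclin counts were thus shifted further to *CCND1* in both NAA40-KD groups, 1.70-fold with the (-dox) labels and 2.26-fold with the (+dox) labels. In log2 the (-dox) difference was 0.77, and 0.95 without replicate 4 (p = 0.0286, exact permutation test). Each difference had p = 0.0286 by an exact two-sided permutation test of 4 against 4, the smallest possible, and 0.114 after adjustment over 20 ratio tests, so that no ratio passed. Of the 20 tests 5 had an unadjusted p under 0.05.

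The ratio of *CDKN1B* to *CDK2*, an inhibitor and its target, was 0.381, 0.527, 0.506 and 0.398 in SCR (-dox) and 0.957, 1.21, 1.07 and 1.36 in NAA40-KD (-dox), a 2.54-fold difference. In log2 this was 1.34, and 1.26 without replicate 4. In SCR (+dox) and NAA40-KD (+dox) the ratios were 0.413 to 0.565 and 0.459 to 0.535. The (-dox) groups did not overlap (p = 0.0286 and 0.114 adjusted, exact permutation test), and the (+dox) groups did (p = 0.629, exact permutation test). The ratio of *CCNE1* to *CCNE2* was 2.13 to 3.35 in SCR (-dox) and 2.74, 4.01, 7.28 and 6.92 in NAA40-KD (-dox), with overlap and p = 0.0571, or 0.0857 without replicate 4 (exact permutation tests). *CDK4* to *CDK6* was 0.344, 0.303 and 0.337 in replicates 1 to 3 of NAA40-KD (-dox), below the 0.473 to 0.849 of SCR (-dox), and 1.30 in replicate 4. The log2 difference of this ratio was -0.42 with replicate 4 (p = 0.486) and -0.92 without it (p = 0.0286, exact permutation tests).

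**Figure D4:**
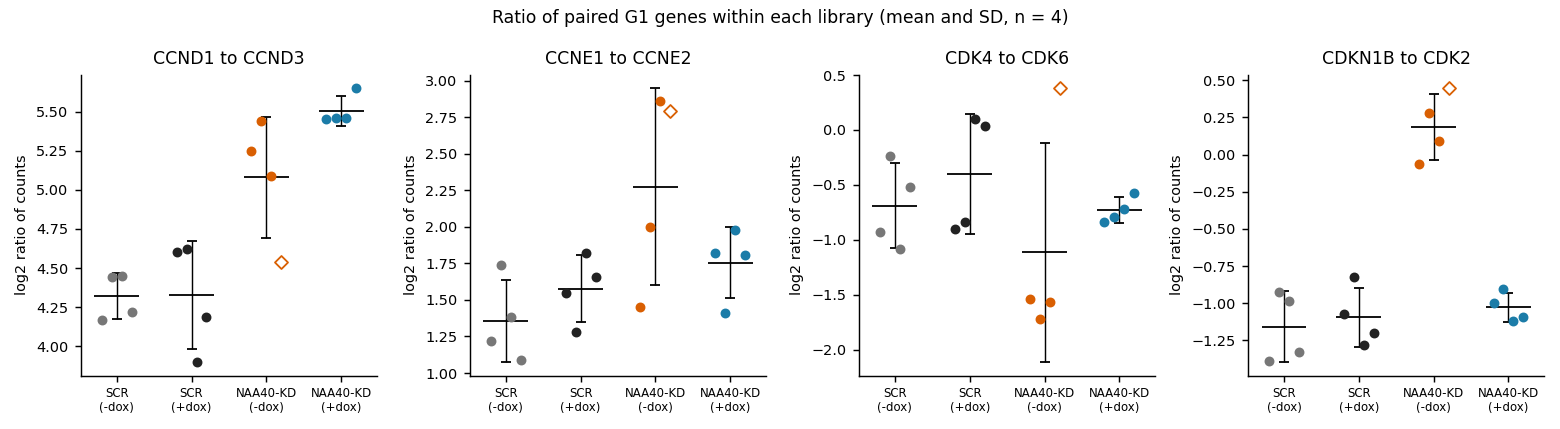
Log2 ratio of the counts of paired G1 genes (y axis, log2, not from 0) within each library, by group (x axis); points are libraries, lines and bars the mean and SD of 4, and the open diamond is the library labelled NAA40-KD (-dox) replicate 4. *CDKN1B* to *CDK2* has a mean of 0.19 with the label NAA40-KD (-dox), and of -1.16, -1.09 and -1.03 in SCR (-dox), SCR (+dox) and NAA40-KD (+dox).

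The promoter of *CDC25A*, the gene that crossed from lower to higher than SCR between the dox labels, was read together with those of the other genes for the letters of E2F sites. RefSeq promoter windows of 250 bases before to 50 bases after the start, on GRCh38.p14, were at hand for *CCND3*, *CCNE1*, *CDK4*, *CDK6*, *CDC25A* and *CDKN1B*, 6 of the 10 genes. The letters searched were TTTGGCGC, TTTGCCGC, TTTCGCGC and TTTCCCGC on both strands, which 3.31% of 35116 promoters hold. *CDC25A* held 1, TTTGGCGC, at 44 to 37 bases before the start, and the 5 others held 0. The stretch around it, on the minus strand at chr3:48188434-48188481, is shown with these letters in capitals.
CDC25A: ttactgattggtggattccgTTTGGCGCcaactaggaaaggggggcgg
A match of letters is a description of the sequence and says nothing on binding in these cells. Only 1 window per gene and these exact letters were read, so a count of 0 does not mean that a gene lacks E2F sites.

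Other genes of the G1 machinery, 39 of 39 tested, were read from a list of RB and E2F factors, kinase inhibitors, activators and inhibitory kinases, turnover genes and the later cyclins. With the (-dox) labels 0 were higher and 6 lower in NAA40-KD, a share of 15.4% of the list against 6.42% of all genes. The median log2 fold change of the list was -0.27. *E2F2* and *E2F1*, factors that drive the G1/S genes, had -1.35 ± 0.23 and -1.08 ± 0.28, and *RBL1*, which encodes the RB relative p107, had -1.09 ± 0.27 (adjusted p of 0.0115, 0.0482 and 0.0453, edgeR). Without replicate 4 of that group 7 were higher and 18 lower, in a fit that called 36.5% of all genes.

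With the (+dox) labels 3 of these 39 genes were higher and 9 lower, a share of 30.8% that was near the 24.5% of all genes. The 3 higher were *E2F3*, *E2F5* and *E2F4* with log2 fold changes of 0.46 ± 0.08, 0.38 ± 0.12 and 0.29 ± 0.10. The lower ones with the widest differences were *CDKN2C* (-0.68 ± 0.13) and *CDKN2D* (-0.47 ± 0.13), inhibitors of CDK4 and CDK6, and *CDC25B* (-0.65 ± 0.09), a phosphatase that acts mainly before mitosis. Within the NAA40-KD line 4 were higher and 3 lower with the (+dox) label, a share of 17.9% against 10.2% of all genes. They were led by *E2F2* (1.48 ± 0.20), *E2F1* (1.04 ± 0.26) and *SKP2* (0.64 ± 0.13), which marks p27 for breakdown, and by *CDKN1C* (-0.95 ± 0.25), *CDC25B* (-0.82 ± 0.17) and *CDKN1A* (-0.76 ± 0.16), the inhibitors p57 and p21 among them. Without NAA40-KD (-dox) replicate 4 these counts were 16 and 10, in a fit that called 52.4% of all genes. In the SCR line 0 were called by edgeR or DESeq2, and 9 had an interaction, 4 positive and 5 negative, a share of 23.1% against 9.22% of all genes. Without NAA40-KD (-dox) replicate 4 the interactions were 8 positive and 7 negative, in a fit that called 24.2% of all genes.

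Over all 16 libraries the genes whose profile of centred log2 CPM was nearest to that of *CCNE2* were *POLA1*, the catalytic subunit of DNA polymerase alpha, *CENPU*, a kinetochore protein, and *SUV39H2*, a histone H3 lysine methyltransferase. Their root mean square differences from *CCNE2* were 0.187, 0.206 and 0.216 log2 units, where *CCNE2* itself varied by 0.730 around its mean and the median difference over all genes was 0.785. Nearest to *CDC25A* were *MTARC1*, *LINC01128* and *INAFM2*, at 0.130, 0.151 and 0.162, with 0.417 for its own variation and a median of 0.519. These profiles include the library that stood apart. Without it *POLA1* and *CENPU* were at ranks 2 and 3 for *CCNE2*, after *CASD1*, and *SUV39H2* was at rank 5. *MTARC1* was still nearest to *CDC25A*, while *LINC01128* and *INAFM2* were at ranks 9 and 16.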

How the data were processed

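The authors deposited 1 table of raw counts, made with STAR and featureCounts and not normalized, of 33937 genes in 16 libraries. Each of these genes has at least 1 count. Whether reads were counted by strand is not given in the sources used here. The submitters' processing notes list a human and a mouse build and the methods name the mouse build, while all 33937 identifiers were human Ensembl identifiers, 33590 of them with a symbol. The labels name Direct-zol columns, the methods RNeasy columns and a stranded kit. Coordinates, exon lengths and overlaps came from GENCODE 29 (GRCh38), promoters from RefSeq (GRCh38.p14).

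From the deposited counts, edgeR 4.0.16 in R 4.3.3 gave log2 fold changes with TMM scaling, robust two-sided quasi-likelihood F tests and Benjamini-Hochberg adjustment over all genes that had more than 1 CPM in 4 or more of the libraries fitted. A gene was called at an adjusted p under 0.05. Each comparison used its own 8 libraries, and the interaction all 16. The SE was taken from the log2 fold change and the square root of F, as the absolute value of their quotient. Ratios are of counts plus 0.5. Pairs of libraries of a group differed by 1.79 to 156 times the sampling noise (chi-square over its degrees of freedom), so none was counted as a duplicate. The scripts were tested on simulated data in which all genes had the same spread and no library stood apart. That test therefore does not cover a library such as NAA40-KD (-dox) replicate 4. Total counts of 11065606 to 13855486 leave large counting error in genes such as *CCNE2*. Groups were taken from the labels. The 10 genes, the lists and the named genes (the 10, *NAA40*, up to 3 called list genes per direction and comparison, and 3 nearest profiles for genes past a log2 fold change of 1) were chosen with earlier results of these data known. Alternatives were DESeq2 1.42.0, limma-voom (limma 3.58.1), other scalings, filters and thresholds, a fit over 16 libraries, the replicate number as a block, and each library left out. A transcript length offset, SCR (+dox) replicates 1 and 2 alone, the level order and nearest profiles without NAA40-KD (-dox) replicate 4 and the alternatives for the list of other G1 genes were added after the data had been seen.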

Additional observations from a re-analysis of the deposited data

Results flagged for a closer look

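The level of *CDK6* in 2 libraries lay further from its group than Dixon's 95% limit for 4 samples. In SCR (-dox) replicate 2 it was 80.43 CPM against 106 to 111 CPM in the other libraries of that group, and in NAA40-KD (-dox) replicate 4 it was 53.85 CPM against 117 to 128 CPM. These are 2 of the 36 combinations of gene and group that were examined, and chance flags about 1 in 20. The transcript length difference of these libraries was -0.04 and -0.61 in log2.

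The difference between NAA40-KD and SCR libraries itself differed between the dox labels for 4 genes, by edgeR's interaction test over 16 libraries. The interaction was 0.8628 for *CCNE1*, 1.536 for *CCNE2*, 0.9165 for *CDK2* and 1.247 for *CDC25A* on the log2 scale, (+dox) minus (-dox). All 4 were positive and passed the adjusted p threshold of 0.05 in each of the 24 alternative fits.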

How the results depend on the processing

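With the (-dox) labels the count of 4 called genes became 0 at an adjusted p under 0.01, 2 with no filter on low counts and 6 with DESeq2 or all 16 libraries in 1 fit, and 0 to 8 with 1 library left out. Of all genes 154 of 13903 were called at the stricter threshold and 1052 of 31026 with no filter. DESeq2 called 1914 of 13903, and the fit of all 16 libraries 2951 of 14392. With 1 library left out 1.64% to 36.5% of all genes were called. In the NAA40-KD line the count of 4 became 1 at an adjusted p under 0.01, and 1 to 8 with 1 library left out. Of all genes 331 of 13844 and 2.77% to 52.4% were called in these fits. With the (+dox) labels it was 2 to 4 over the alternatives, in the SCR line 0 in each, and 3 to 6 for the interaction. The 2 came with all 16 libraries in 1 fit, which called 966 of 14392 genes. The 4 came with the replicate block (4070 of 13869 genes) and without SCR (+dox) replicate 1 (3231 of 13734). The 3 interactions came at an adjusted p under 0.01 (465 of 14392 genes), and the 6 without NAA40-KD (-dox) replicate 4 (3467 of 14302). Of the level ranks 26 of 40 stayed with the longest transcript as the length. *NAA40* with the (+dox) labels was at 108.9% to 112.8% with 1 library left out, and p reached 0.0286 (exact permutation test) without NAA40-KD (+dox) replicate 3.

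For the list of other G1 genes with the (-dox) labels, 6 calls became 0 at an adjusted p under 0.01, 10 with DESeq2, 3 with library size scaling, 15 with all 16 libraries and 1 to 25 with 1 library left out. The calls over all genes were 154, 1914 and 913 of 13903 in the first 3 of these fits. They were 2951 of 14392 with all 16 libraries, and 1.64% to 36.5% with 1 left out. With the (+dox) labels 12 became 4 at an adjusted p under 0.01, 1 with all 16 libraries and 7 to 12 with 1 library left out. Over all genes 3402 of 13869 calls became 1761 of 13869, 966 of 14392 and 17% to 25.4% in this order. In the NAA40-KD line 7 became 1 and 11 at an adjusted p under 0.01 and under 0.1, 13 with DESeq2 and with all 16 libraries, and 1 to 26 with 1 library left out. All calls there were 331 and 2449 of 13844 at these thresholds and 2526 of 13844 with DESeq2. They were 3210 of 14392 with all 16 libraries, and 2.77% to 52.4% with 1 left out. The 9 interactions became 2 at an adjusted p under 0.01 and 3 to 15 with 1 library left out, against 465 of 14392 and 5.71% to 24.2% of all genes. The cause of these shifts was not tested, except that a stricter threshold calls fewer genes.

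The replicate numbers were taken as names only, since no comparison had a correlation of deviations over 0.1 between same-numbered libraries for all 4 numbers. In the NAA40-KD line it was 0.0341, 0.206, 0.116 and 0.237, and the libraries of numbers 2, 3 and 4 correlated best with their own number, a hint of pairing there. With the (-dox) labels it was -0.416 to 0.142. With the replicate block the calls with the (-dox) labels were 0, those with the (+dox) labels 4, and those in the NAA40-KD line, the SCR line and the interaction 4, 0 and 4. For the other G1 genes the block gave 1 with the (-dox) labels and 3 in the NAA40-KD line. Over all genes the block called 82 of 13903 with the (-dox) labels and 4070 of 13869 with the (+dox) labels. It called 777 of 13844 in the NAA40-KD line, 0 of 13882 in the SCR line and 1217 of 14392 for the interaction. Of the 5 ratios with an unadjusted p under 0.05, 0 remained in the paired sign-flip test, which is too small a design to reach it with 4 pairs.

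Directions turned only where the change was not called. *CDK6* with the (-dox) labels was at -0.01003 with limma-voom and -0.004425 with the replicate block in log2, and -0.05658 to 0.2578 with 1 library left out. In the NAA40-KD line it was at -0.009191 with the length offset and -0.1849 to 0.141 with 1 left out, where the call without NAA40-KD (-dox) replicate 4 was the exception. With the (+dox) labels *CDK4* was at 0.0281 with the length offset, 0.1441 against SCR (+dox) replicates 1 and 2, and -0.1192 to 0.01475 with 1 left out, *CDKN1B* at -0.03524 against these 2 libraries, and *CCNE2* and *CDK2* at -0.1115 to 0.009593 and -0.02572 to 0.07771. In the SCR line *CCNE1* was at -0.03268 with the length offset, *CDKN1B* at 0.001883 with upper-quartile scaling, and *CCND3*, *CCNE1* and *CDKN1B* at -0.1627 to 0.001332, -0.02914 to 0.07012 and -0.07587 to 0.05981 with 1 left out. The log2 ratios of *CCND1* to *CCND3* and *CDKN1B* to *CDK2* there were at -0.0842 to 0.155 and -0.0244 to 0.142. The interactions of *CCND3* and *CDK6* were at -0.3321 to 0.04308 and -0.009589 to 0.3224. Among single genes, ratios and levels 999 alternative values kept their direction and call or, for levels per kb, stayed within 1 SD, while 55 lost the call, 24 gained it and 26 moved further. For ratios a call here means an unadjusted p under 0.05, since none passed after adjustment. Ratios of summed counts were untested and read by direction alone.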
